A study of Rattus rattus with 8 samples.

Results

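Interferon-stimulated genes are described here in diploid (2n) and tetraploid (4n) cells sorted from hypoxic cultures of neonatal rat cardiomyocytes. The 9 genes Isg15, Mx1, Mx2, Ifit2, Ifit3, Irf7, Rsad2, Usp18 and Bst2 were chosen by name, and each matched a single row among the 30957 genes of the deposited table. Both groups came from heart cells of SD rats aged 1 to 3 days after birth, which the labels call cardiomyocytes (NRCM) and enter under the organism Rattus rattus. All cultures had passed differential adherence, 24 h with 0.2 mM AraC, a DNA synthesis inhibitor, and insulin-transferrin-selenium, serum starvation, and then 48 h at 1% oxygen. Cells were stained with 2 µg/mL Hoechst 33342 and sorted by DNA content. The 4n group had 4 libraries and the 2n group had 4, described as independent experiments, and no normoxic library is part of the series. A 4n signal can come from a tetraploid nucleus, a binucleated cell, a cell in G2 or M phase or a pair of 2n cells stuck together. The libraries of 1 replicate number, 1 of each group, are called a culture here. Their descriptions begin with the same code, and whether they also shared a day of sorting or library preparation is not stated, so culture and any such batch cannot be told apart.

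Interferons are secreted proteins by which cells signal the presence of viruses or stray nucleic acids. Type I interferons bind the receptor made of Ifnar1 and Ifnar2, whose kinases Jak1 and Tyk2 pass the signal on by phosphorylation. Stat2 and Irf9 are parts of the transcription factor that then turns on a large set of antiviral genes, the interferon-stimulated genes. In the heart this programme is best known from viral myocarditis and from the response to dying cells after infarction, and cultured fibroblasts and cardiomyocytes both carry the receptor.

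Libraries held 14783521 to 21033772 counts, and 12983 genes, with all 9 interferon-stimulated genes among them, had enough counts to be tested. Genes of the mitochondrial chromosome took 3.71% to 25.9% of the counts in 4n and 2.87% to 3.82% in 2n. Levels are therefore given as CPM, which scales counts to library size (here with TMM factors), and FPKM, which also divides by gene length, serves to compare different genes. Sums over markers and the values of Ifit1lb are FPKM too and carry the difference in mitochondrial share. The 11 cardiomyocyte markers summed to between 1996 and 11310 FPKM in the 4n libraries, against 323 to 494 in the 2n libraries. The 7 fibroblast markers summed to between 4775 and 10420 FPKM in 4n, against 9535 to 12200 in 2n. The fibroblast sum exceeded the cardiomyocyte sum in 3 of 4 libraries of 4n, replicate 3 being the exception, and in 4 of 4 of 2n. In such bulk samples fewer cells of a type and less RNA per cell cannot be told apart.

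Ifit2 was the most abundant of the 9 genes and the others were transcribed at low levels. Ifit2, an RNA-binding protein with tetratricopeptide repeats that restricts viral translation, lies on chromosome 1 from 252894663 to 252900726 in Rnor_6.0. It averaged 19.5 FPKM over the 8 libraries. It exceeded the next gene, Irf7, in 8 of 8 libraries, and its lowest value of 9.14 FPKM lay above the highest Irf7 value of 4.07 FPKM. Irf7, the transcription factor that amplifies interferon production, averaged 2.44 FPKM over the 8 libraries. Bst2, or tetherin, a membrane protein that holds budding virus at the cell surface, averaged 2.14 FPKM. Isg15, a ubiquitin-like protein that is attached to other proteins, averaged 1.48 FPKM and Ifit3, a partner of other Ifit proteins, 1.17 FPKM. Mx2, a dynamin-like antiviral GTPase, averaged 0.525 FPKM. Usp18, the protease that removes Isg15 and dampens the receptor, averaged 0.322 FPKM. Rsad2, or viperin, an enzyme that makes a chain-terminating nucleotide, averaged 0.256 FPKM and Mx1, the sister GTPase of Mx2, 0.221 FPKM. From Irf7 down, the ranges of all neighbours in this order overlapped, and the upper gene of each pair was higher in 4 to 7 of 8 libraries. The order of neighbours is therefore not resolved. Further apart, the lowest values of Irf7 and Bst2, 1.11 and 0.771 FPKM, lay above the highest of Usp18, Rsad2 and Mx1, 0.474, 0.722 and 0.721 FPKM.

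The 3 genes Isg15, Ifit3 and Rsad2 differed between the replicate cultures, and in each both libraries of culture 4 stood above the other 6. The question was whether levels differ between cultures by more than the sorted fractions of 1 culture differ from each other after a common 4n effect. It was tested with edgeR's quasi-likelihood F test over the replicate terms, in a model that also holds the group. Over all genes tested 8.21% were called in this way, against 3 of the 9 interferon-stimulated genes, and 6 of the 9 had an unadjusted p under 0.05, against 30.3% of all genes. In 6 of the 9 both libraries of culture 4 exceeded the other 6, which held for 6.41% of all genes tested. For cultures 1, 2 and 3 this held for 0 of the 9 and for 10.2%, 6.29% and 3.47% of all genes. Isg15, Rsad2, Mx1 and Usp18 had enough counts to be tested only with the libraries of culture 4. The shares among the 9 are therefore not independent of the high counts in culture 4.

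Isg15, on chromosome 5 from 173624310 to 173626248, had 0.966, 0.372, 0.215 and 6.06 CPM in 4n replicates 1 to 4, against 0.305, 0.824, 0.477 and 6.34 CPM in 2n replicates 1 to 4. Culture 4 was the high one in both groups, at 83 counts in 4n and 134 counts in 2n, while the other 6 libraries held 3 to 19 counts. Its mean over the libraries of culture 4 was 9.75-fold that of the next culture (edgeR F test, adjusted p = 0.0144). Only 23 of the 12983 genes tested had a wider range of log2 level over the cultures than the 3.84 of Isg15.

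Ifit3, on chromosome 1 from 252906234 to 252911373, had 1.07, 0.0743, 0.644 and 6.86 CPM in 4n replicates 1 to 4, against 1.16, 0.867, 1.59 and 6.62 CPM in 2n replicates 1 to 4. Culture 4 was again highest in both groups, and 4n replicate 2, with a single count, was lowest. The mean of culture 4 was 6.04-fold that of the next culture (edgeR F test, adjusted p = 0.0246). Rsad2, on chromosome 6 from 45655954 to 45669148, had 0.537, 0.149, 0.501 and 2.41 CPM in 4n replicates 1 to 4, against 0.670, 0.434, 0.318 and 2.46 CPM in 2n replicates 1 to 4. Its mean in culture 4 was 4.03-fold that of the next culture (edgeR F test, adjusted p = 0.0344). Outside culture 4 no Rsad2 library had more than 11 counts, so differences among cultures 1 to 3 were not detectable at this depth.

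These calls were lost without either library of culture 4. Without 4n replicate 4 the adjusted p was 0.177, 0.215 and 0.233 for Isg15, Ifit3 and Rsad2, and without 2n replicate 4 it was 0.173, 0.145 and 0.218. Without both libraries of culture 4, Isg15, Rsad2, Mx1 and Usp18 had too few counts to be tested, so this fit says nothing about them. Of the 5 interferon-stimulated genes still tested, Ifit3 among them, 0 were called, and 64 of all genes were. Some calls were also lost without other libraries. Leaving out any library, of culture 4 or another, also leaves the test fewer residual degrees of freedom, and the cause of the lost calls was not tested. Isg15 had an adjusted p of 0.0564 without 2n replicate 2 and 0.0561 without 4n replicate 2, and Ifit3 had 0.0561 without 4n replicate 2. Rsad2 had 0.0558, 0.0901, 0.0574 and 0.104 without 2n replicate 1, 2n replicate 2, 4n replicate 1 and 4n replicate 2.

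The other 6 genes did not pass the test. Mx2, on chromosome 11 from 38035450 to 38059950, had 0.698, 1.34, 0.644 and 3.43 CPM in 4n replicates 1 to 4, against 1.77, 1.73, 1.91 and 3.92 CPM in 2n replicates 1 to 4 (edgeR F test, adjusted p = 0.0909). Bst2, on chromosome 16 from 19938784 to 19942353, had 1.72, 2.75, 1.22 and 6.21 CPM in 4n replicates 1 to 4, against 1.95, 2.52, 1.96 and 4.16 CPM in 2n replicates 1 to 4 (edgeR F test, adjusted p = 0.0671). In both genes the libraries of culture 4 were the highest of their group. Without 2n replicate 3 both passed, at an adjusted p of 0.0383 for Mx2 and 0.0219 for Bst2, as did Ifit2 at 0.0336. With total count scaling Mx2 and Bst2 passed at 0.0380 and 0.0220, and with DESeq2's likelihood ratio test Bst2 passed at 0.0206.

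Irf7, on chromosome 1 from 214248837 to 214252456, had 4.40, 3.05, 2.65 and 7.08 CPM in 4n replicates 1 to 4, against 2.01, 6.42, 4.77 and 7.47 CPM in 2n replicates 1 to 4 (edgeR F test, adjusted p = 0.311). Culture 4 was highest in both groups, with 2n replicate 2 close below it. The locus of Irf7 shares 65 bases with that of Phrf1, and without a stated strand setting reads from this overlap cannot be assigned. Mx1, on chromosome 11 from 37891156 to 37914983, had 0.376, 0.446, 0.0715 and 0.730 CPM in 4n replicates 1 to 4, against 0.792, 0.607, 0.371 and 2.22 CPM in 2n replicates 1 to 4 (edgeR F test, adjusted p = 0.0886). Here 2n replicate 4 was highest and 4n replicate 4 lay below 2n replicate 1. Mx1 and Mx2 are close paralogs, 120466 bases apart, so reads may have been split between them by the counting.

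**Figure D1:**
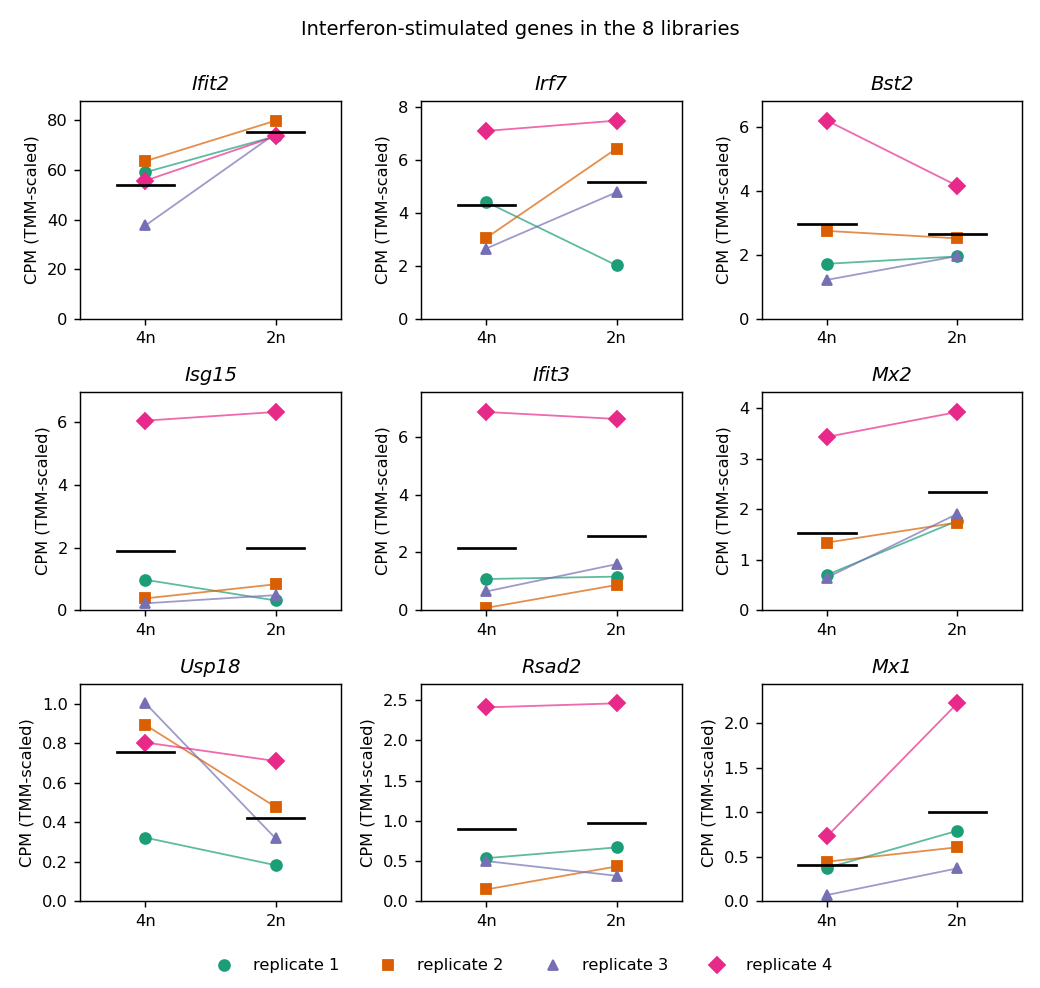
CPM (TMM-scaled, linear axis from 0) of the 9 interferon-stimulated genes in the 4n and 2n libraries, with a marker and line for each replicate number and a black bar for the mean of each group (n = 4). Both culture 4 libraries lie above the other 6 in Irf7, Bst2, Isg15, Ifit3, Mx2 and Rsad2, while Ifit2 is lower in 4n than in 2n in every culture.

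Usp18, on chromosome 4 from 153805993 to 153834430, did not share this pattern. It had 0.322, 0.892, 1.00 and 0.803 CPM in 4n replicates 1 to 4, against 0.183, 0.477, 0.318 and 0.709 CPM in 2n replicates 1 to 4, from 3 to 15 counts per library (edgeR F test, adjusted p = 0.292). Culture 1 was lowest in both groups. The highest 4n library was replicate 3, and the highest 2n library was replicate 4. Culture 4 had the highest mean of Usp18 too, but at 1.11-fold that of the next culture.

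Ifit2 was the flattest of the 9 between cultures, with a range of 0.43 in log2 level over the cultures, against 3.99 for its neighbour Ifit3, which lies across a gap of 5507 bases. The median range over all genes tested was 0.54. Ifit1, 1 more gene of this cluster and an RNA-binding protein that recognises foreign 5′ ends, had 0.698, 0.446, 1.29 and 1.75 CPM in 4n replicates 1 to 4, against 0.305, 0.694, 0.795 and 1.32 CPM in 2n replicates 1 to 4. Both its culture 4 libraries were highest, but it did not pass between cultures (edgeR F test, adjusted p = 0.186). The cluster row Ifit1lb, which was looked up for its position after the other values were seen, had 1.33 to 2.40 FPKM in 4n and 1.02 to 1.79 FPKM in 2n, with no peak in culture 4.

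Between 4n and 2n cells none of the 9 genes passed the test. Over all genes, edgeR's quasi-likelihood test called 2.67% higher and 0.0077% lower in 4n, and of the 9 genes it called 0 higher and 0 lower. DESeq2 and limma-voom also called 0 of the 9. Since limma-voom called 0 of all genes, its result says nothing about the 9, and DESeq2 gave no adjusted p for Isg15. With each of the 3 tools 1 of the 9, Ifit2 with edgeR, was lower in 4n at an unadjusted p under 0.05. So were 4.82% of all genes with edgeR. The log2 fold change, 4n over 2n, was negative for 7 of the 9 and positive for 2, with a median of -0.25, against -0.01 over all genes, of which 6253 were positive. With the replicate number as a block, 4.27% of all genes were called higher and 0.608% lower, and again 0 of the 9. At an unadjusted p under 0.05 the block gave 3 of the 9 lower in 4n, Ifit2, Mx1 and Mx2, against 13% of all genes, and 0 higher.

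Ifit2 came closest. It had 59.1, 63.6, 37.6 and 55.7 CPM in 4n replicates 1 to 4, against 73.7, 79.95, 74.8 and 73.6 CPM in 2n replicates 1 to 4. All 4n libraries lay below all 2n libraries, which was so for 3.69% of all genes tested and for none of the other 8. The reverse, all 4n above all 2n, was so for 0 of the 9 and 7.68% of all genes. The log2 fold change was -0.48 ± 0.16 (SE, n = 4 each; edgeR adjusted p = 0.165, and 0.0630 with the block). With 526 to 1844 counts per library its counting error was small, and the ratio of 4n to 2n was 0.802 (95% interval 0.739 to 0.871), 0.795 (0.733 to 0.863), 0.503 (0.454 to 0.556) and 0.756 (0.693 to 0.825) in cultures 1 to 4. These exact intervals cover counting error only. The fibroblast markers also summed to less in 4n than in 2n in 4 of 4 cultures, and the part of this in the Ifit2 values was not tested.

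Both Mx genes were also lower in 4n in 4 of 4 pairs, as were 19.7% of all genes. Mx1 averaged 0.406 ± 0.270 CPM in 4n and 0.998 ± 0.834 CPM in 2n (SD, n = 4 each), and its fitted log2 ratio was -1.30 ± 0.70 (SE; adjusted p = 0.381 by edgeR). Mx2 averaged 1.53 ± 1.31 CPM in 4n and 2.33 ± 1.06 CPM in 2n, and its fitted log2 ratio was -0.62 ± 0.56 (SE; adjusted p = 0.611 by edgeR). In both the groups overlapped. Usp18 was the 1 gene higher in 4n in 4 of 4 pairs, as were 20.2% of all genes. It averaged 0.754 ± 0.299 CPM in 4n and 0.422 ± 0.226 CPM in 2n (SD, n = 4 each), and its fitted log2 ratio was 0.79 ± 0.52 (SE; adjusted p = 0.469 by edgeR).

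For the genes that varied most between cultures the error of 4n against 2n depended on the block. Without it the log2 fold change was -0.08 ± 1.17 for Isg15, -0.25 ± 1.04 for Ifit3 and -0.13 ± 0.87 for Rsad2 (SE, n = 4 each; edgeR adjusted p = 0.983, 0.925 and 0.957). With it the values were -0.08 ± 0.45, -0.65 ± 0.44 and -0.18 ± 0.41 (edgeR adjusted p = 0.927, 0.351 and 0.792). Within culture 4, where counts were highest, the ratio of 4n to 2n was 0.956 (95% interval 0.718 to 1.27) for Isg15, 1.04 (0.789 to 1.36) for Ifit3 and 0.980 (0.613 to 1.54) for Rsad2. In cultures 1 to 3 Isg15 had ratios of 3.17, 0.451 and 0.450, so its direction was not shared. Ifit3 stood at 1 count in 4n replicate 2 against 20 counts in 2n replicate 2, a ratio of 0.0857 (0.00207 to 0.536). Irf7 had ratios of 2.19, 0.475, 0.555 and 0.948 in cultures 1 to 4, with intervals that left out 1 on opposite sides in culture 1 and in cultures 2 and 3. The fitted log2 ratio of Irf7 was -0.27 ± 0.43, and that of Bst2 was 0.16 ± 0.51 (SE; edgeR adjusted p = 0.790 and 0.902). Bst2 had ratios of 0.881, 1.09, 0.620 and 1.49 in cultures 1 to 4. Its fitted value turned negative with total count scaling (-0.09), where the median of all genes was itself at -0.25, and with limma-voom (-0.09). On log2(FPKM + 0.1) values it was -0.26, with a median of -0.26 over all genes.

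**Figure D2:**
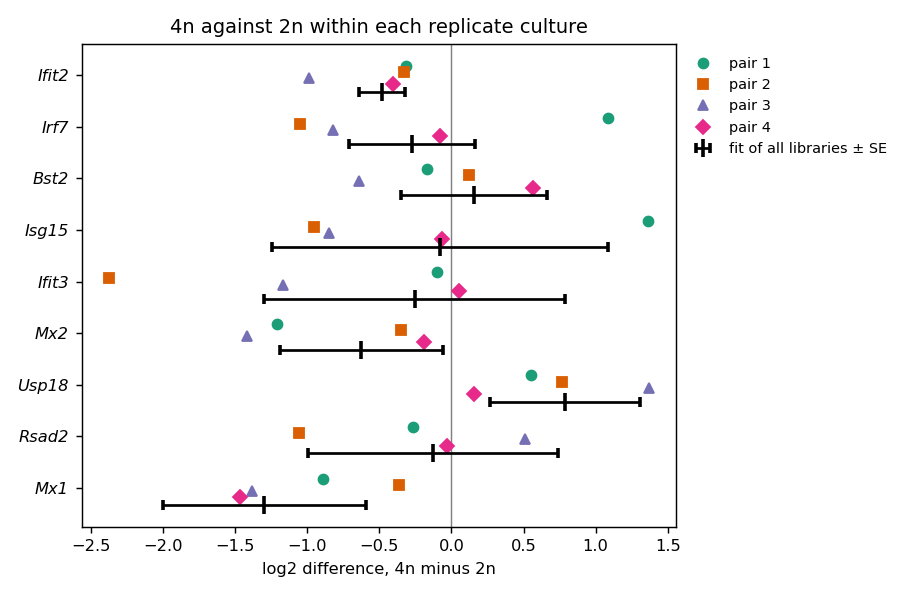
Log2 difference of CPM, 4n minus 2n, of the 9 interferon-stimulated genes in the pairs of replicates 1 to 4 (coloured markers) and the log2 fold change of the fit of all 8 libraries with its standard error (black). All 4 pairs lie below 0 for Ifit2, Mx1 and Mx2 and above 0 for Usp18, and for Isg15, Irf7, Bst2, Ifit3 and Rsad2 the pairs fall on both sides.

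The ligands of the pathway were at or near 0. Ifnb1, Ifna2, Ifna4, Ifna5, Ifng, Ifnk and Ifnl3 were listed at 0 in all 8 libraries, and Ifne, an interferon of epithelia, had a mean of 0.233 FPKM. A listed 0 need not mean an absent transcript, since Col1a2 and Myh9, which fibroblasts transcribe strongly, are also listed at 0 in all 8 libraries (both named after their values were seen). The receptors were all tested, and 0 of 6 passed between 4n and 2n or between cultures. Over all genes 8.21% passed between cultures, and 2.67% were called higher and 0.0077% lower in 4n. Ifnar1 and Ifnar2, the chains of the type I receptor, averaged 19.7 and 14.9 FPKM over the 8 libraries, and Ifngr1 and Ifngr2, those for interferon gamma, 64.5 and 15.9 FPKM.

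Sensors of viral nucleic acids and their adaptors also gave no call among 12 tested, in either comparison. With 8.21% of all genes called between cultures and 2.67% higher and 0.0077% lower in 4n, 0 calls in lists this short say little about receptors or sensors. Irf3, the factor that first switches on interferon genes, averaged 36.8 FPKM, the adaptor Myd88 9.88 FPKM, the kinase Tbk1 8.46 FPKM and the mitochondrial adaptor Mavs 6.19 FPKM. In signal transduction 1 of 7 genes passed between cultures, where 8.21% of all genes did. This was Jak2, the kinase of the interferon gamma receptor, with 63.2 to 102 CPM in 4n and 85.6 to 137 CPM in 2n (edgeR F test, adjusted p = 0.0378), and culture 4 did not hold both its highest libraries. Stat2 and Irf9 averaged 8.31 and 8.50 FPKM. Their log2 fold changes, 4n over 2n, were -0.24 and -0.09 (edgeR adjusted p = 0.408 and 0.806).

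Of 41 further interferon-stimulated genes tested, 0 passed between 4n and 2n and 6 between cultures, where 8.21% of all genes passed. Both culture 4 libraries were highest in 15 of the 41, or 36.6%, against 6.41% of all genes. The 4 that passed with culture 4 on top were Cxcl10, a chemokine for T cells, Gbp2, a guanylate-binding protein, Parp9 and Lgals9, or galectin 9. Cxcl10 had 2.47, 0.594, 1.65 and 11.7 CPM in 4n replicates 1 to 4, against 2.56, 1.26, 2.07 and 14.2 CPM in 2n replicates 1 to 4 (edgeR F test, adjusted p = 0.00266). Gbp2 had 6.12, 6.39, 2.43 and 22.6 CPM in 4n replicates 1 to 4, against 8.41, 9.97, 6.89 and 26.1 CPM in 2n replicates 1 to 4 (edgeR F test, adjusted p = 0.0112). Slfn2 and Helz2 passed without culture 4 holding both highest libraries. The most abundant of this list were Ifitm3, Ifitm2 and Ifitm1, which block virus entry, at 333, 152 and 136 FPKM on average, and Lgals3bp at 78.6 FPKM. None of these 4 passed between cultures (edgeR F test, adjusted p from 0.0735 to 0.242).

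The conjugation machinery of Isg15 gave 0 calls among the 4 genes tested beside Usp18. Of all genes 8.21% passed between cultures, and 2.67% were called higher and 0.0077% lower in 4n, so 0 of 4 says little. These 4, Uba7, Ube2l6, Herc6 and Trim25, are also among the further interferon-stimulated genes above. Trim25, a ligase for Isg15, averaged 10.6 FPKM, its conjugating enzyme Ube2l6 6.70 FPKM and Herc6, the main ligase in mouse, 0.695 FPKM. Of 9 genes tested on the list of inhibitors, 1 passed between cultures, where 8.21% of all genes did. It was Isg20, which is no inhibitor but an interferon-induced exonuclease that degrades viral RNA. It had 4.67 CPM in 4n replicate 4 and 7.42 CPM in 2n replicate 4 as its highest libraries (edgeR F test, adjusted p = 0.0467). Of 24 rows tested for interferon gamma and MHC class I, 4 passed between cultures, against 8.21% of all genes. Gbp5, Irf8 and Gbp2, which is already counted among the further interferon-stimulated genes, were highest in culture 4. The checkpoint ligand Cd274 was high in cultures 1 and 4, at 2.47 and 2.85 CPM in 4n and 1.89 and 1.75 CPM in 2n. B2m, the invariant chain of MHC class I, averaged 196 FPKM, and the induced transcription factor Irf1 10.2 FPKM.

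Between 4n and 2n, 0 genes of all these lists passed with all 8 libraries and no block, and 1 passed with the block. Of all genes 2.67% were called higher and 0.0077% lower without the block, and 4.27% and 0.608% with it. Without 4n replicate 1 and with no block, 2 genes of the interferon gamma and MHC class I list passed. Cd74, the invariant chain of MHC class II and also a leukocyte marker here, had 1.07, 1.26, 0.930 and 9.27 CPM in 4n replicates 1 to 4, against 0.305, 0, 0.159 and 0.284 CPM in 2n replicates 1 to 4. The highest value was that of 4n replicate 4. Its log2 fold change was 4.06 (edgeR adjusted p = 0.0809, and 0.0367 with the block). With the block but without replicate 2 or without replicate 4, 0 genes of its list passed.

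The list of NF-kappaB targets, genes of the other main arm of innate signalling, was highest in culture 4 throughout. Both culture 4 libraries were highest in 17 of 17 rows tested, against 6.41% of all genes, and 14 passed between cultures, against 8.21% of all genes. Among the 14 were Ccl2, Il6, Ccl7, Vcam1 and Cxcl1 (edgeR F test, adjusted p from 0.00115 to 0.0279 for these). Like the other lists, this one was chosen with earlier results of these data known. Il6 had 26.9 CPM in 4n replicate 4 and 19.9 CPM in 2n replicate 4, against 0.644 to 2.20 CPM in the other 6 libraries. The median over the list of log2 level relative to the mean of the 4 cultures was 1.41 in culture 4, against 1.11 for the 9 interferon-stimulated genes, 0.33 for the 41 further ones and 0.00 for all genes.

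**Figure D3:**
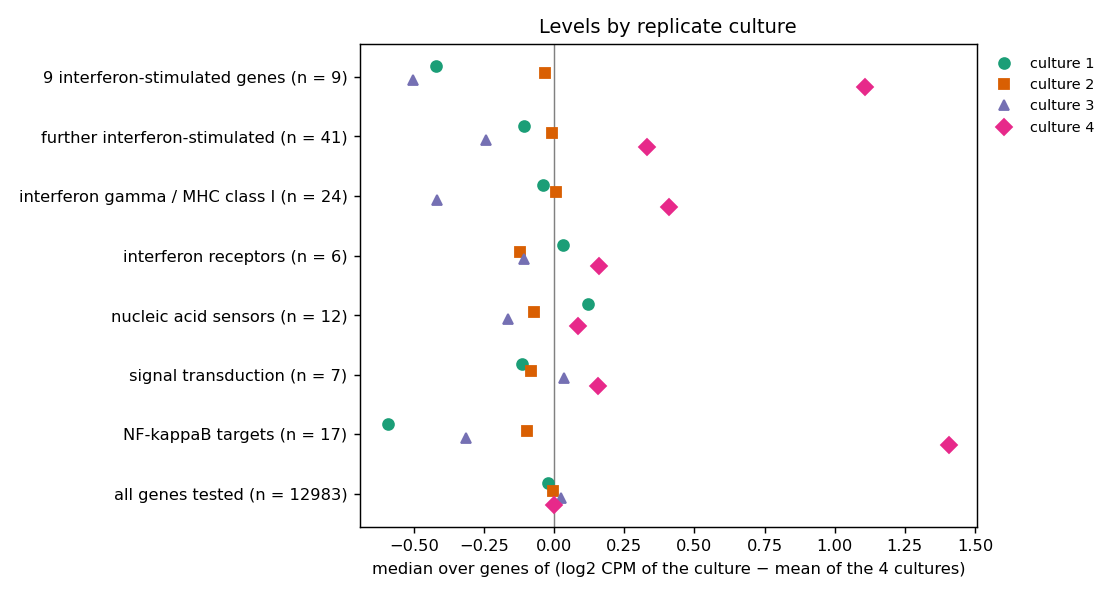
Median over the tested genes of each list of log2 CPM of a culture (mean of its 4n and 2n library) minus the mean of the 4 cultures, for interferon pathway lists, NF-kappaB targets and all 12983 genes tested. Culture 4 is at 1.11 for the 9 interferon-stimulated genes and at 1.41 for the NF-kappaB targets, and receptors, sensors and signal transduction genes lie between -0.16 and 0.16 in all cultures.

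By root mean square difference of centred log2 CPM over the 8 libraries, the 10 genes closest to the mean profile of the 9 were Fst, Cd80, Birc3, MGC112715, C4a, Scara5, Slc28a2, Adamts12, Cxcl16 and Has1, at 0.158 to 0.275, against a median of 0.809 over all genes tested. Fst, or follistatin, an activin-binding protein, was the closest, with 18.2, 14.0, 11.6 and 48.3 CPM in 4n replicates 1 to 4, against 15.8, 19.1, 13.7 and 44.1 CPM in 2n replicates 1 to 4. None of the 10 was on the lists of interferon genes, and Birc3 was on that of NF-kappaB targets. The 9 genes themselves lay between 0.357 for Bst2 and 0.996 for Ifit3 from their own mean profile.

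Markers of other cell types were read in the same libraries. Endothelial markers summed to 75.9 FPKM in 4n replicate 4, against 13.9 to 16.0 FPKM in the other 4n libraries, and to 13.1 FPKM in 2n replicate 4, against 6.60 to 10.7 FPKM in the other 2n libraries. Lymphocyte and other leukocyte markers, of which 5 of 10 were at 0 in all libraries, Cd3e, Nkg7, S100a9 and Siglech among them, summed to 5.92 FPKM in 4n replicate 4 and 0.588 FPKM in 2n replicate 4. In the other libraries they summed to at most 0.998 FPKM in 4n and 0.296 FPKM in 2n. Macrophage markers, with 9 of 10 detected and Cd163 at 0, summed to 2.36 to 12.1 FPKM in 4n and 2.83 to 5.51 FPKM in 2n, and their highest library was 4n replicate 1. The leukocyte sum of 4n replicate 4 was mostly Cd74, at 5.60 FPKM, while the pan-leukocyte marker Ptprc had 0.168 FPKM there, against 0.189 and 0.191 FPKM in 4n replicates 1 and 2. The MHC class II genes RT1-Da and RT1-Ba, both named after their values were seen, also peaked in 4n replicate 4. They had 45 and 36 counts there, against at most 5 and 3 counts in any other library, and were too low to be tested. In 2n replicate 4 the leukocyte sum came from 14 counts of Flt3, 6 of Cd74 and 1 each of S100a8 and Ptprc. The endothelial sum was higher in the 4n than in the 2n library of culture 4. Isg15 stood at 6.06 CPM in 4n replicate 4 and 6.34 CPM in 2n replicate 4. The sums in FPKM and the levels in TMM-scaled CPM are not on the same scale. The part of these cell types in the levels of the interferon-stimulated genes was not tested.

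**Figure D4:**
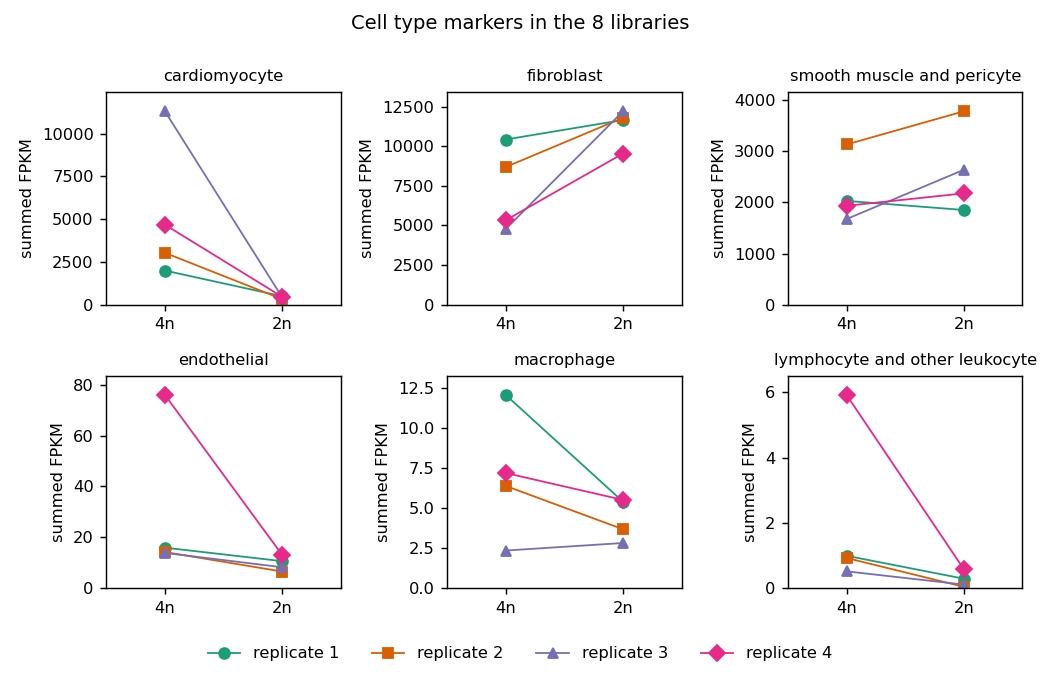
Summed FPKM (linear axis from 0) of the markers of 6 cell types in the 4n and 2n libraries, with a marker and line for each replicate number. Endothelial and leukocyte sums peak in 4n replicate 4 at 75.9 and 5.92 FPKM, of which Cd74 alone gives 5.60 FPKM of the leukocyte sum, and the macrophage sum peaks in 4n replicate 1 at 12.1 FPKM.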

How the data were processed

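RNA of 8 libraries was sequenced by the submitters, and reads were aligned with HISAT2 2.0.4 to Rnor_6.0, per the submitters' processing notes. Which tool counted the reads, and with what strand setting, is not stated here. The deposited counts are whole numbers per gene and not normalized, per the file headers. The deposited FPKM values match counts over library total times a fixed length for each gene, within a relative tolerance of 0.001, in all 18337 genes with a count. Coordinates are those of the deposited table.

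The test was edgeR's (4.0.16, R 4.3.3): filterByExpr left 12983 genes, libraries were TMM-scaled, and a robust quasi-likelihood model with the group as factor was fitted, two-sided, with Benjamini-Hochberg adjustment over all genes tested and a threshold of 0.05. Cultures were compared by an F test over the 3 replicate terms of a model with group and replicate. Log2 CPM used a prior count of 2, and 1 TMM-scaled CPM was 13.5 to 23.1 counts. No label states that libraries come from separate animals, so p-values measure the spread between these libraries. The deviations of same-numbered libraries from their group means correlated at 0.429, 0.585, 0.268 and 0.648, and each library correlated best with its namesake. The block, the culture test and the ratios within cultures therefore treat libraries as paired by number. The main test of 4n against 2n, with the group alone, does not. Replicates differed by more than sampling noise (chi-square per degree of freedom from 36.7 to 419).

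The 9 genes and the lists of genes were chosen with earlier results of these data known. Named genes are the 9, list genes that passed a test or were among the 4 most abundant of a list, the core of the pathway, and the 10 genes closest in profile. Some genes of the lists are not reported here. Alternatives were DESeq2 1.42.0, limma-voom and limma-trend (limma 3.58.1) on log2(FPKM + 0.1) or log2(FPKM + 1), other scalings, no filter, the block, and leaving out libraries or pairs. The tests were checked on simulated counts.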

Additional observations from a re-analysis of the deposited data

Results flagged for a closer look

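A library was looked at again where it stood apart from the other 3 of its group by Dixon's test for outliers. For normally distributed values and unrelated groups this test marks about 1 in 20 groups by chance. The values here are on a linear scale and all groups come from the same 8 libraries, so that rate is only a rough guide. Of 18 groups of values of the 9 genes 6 were marked, and each time the library was that of culture 4. Isg15 stood apart at 6.06 CPM in 4n replicate 4 and 6.34 CPM in 2n replicate 4, and Ifit3 at 6.86 CPM in 4n replicate 4 and 6.62 CPM in 2n replicate 4. Mx2 stood apart in 2n replicate 4 alone, at 3.92 CPM, and Rsad2 also in 2n replicate 4 alone, at 2.46 CPM. Of 16 groups of marker sums 4 were marked. In 4n replicate 4 endothelial markers summed to 75.9 FPKM and lymphocyte and other leukocyte markers to 5.92 FPKM, of which 5.60 FPKM was Cd74. Erythroid markers were at 0 in the other libraries, against 0.231 FPKM in 4n replicate 2 and 0.0859 FPKM in 2n replicate 3, which are 2 counts of Hba1 and 1 count of Hbb. A group at 0 in all libraries but 1 is always marked, so these erythroid marks carry no information. The values of culture 4 are set beside its cell type markers above, and the cause was not tested.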

How the results depend on the processing

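Between 4n and 2n, 0 of the 9 interferon-stimulated genes were called under each of 21 alternatives. Only 13 of the 21 called any gene higher in 4n, and 13 called any gene lower. In the rest, 0 of the 9 was certain for that direction. With the block, 8 of the 9 were tested without replicate 1 and 5 without replicate 4. The folds of Ifit2 (-0.75 to -0.35), Mx1, Mx2 and Usp18 kept their sign throughout. That of Bst2 was negative with total count scaling (-0.0913), limma-voom (-0.0941), log2(FPKM + 0.1) (-0.26) and log2(FPKM + 1) (-0.141), where the medians of all genes were -0.25, -0.02, -0.26 and -0.20. Without single libraries the folds ranged from -0.489 to 0.461 for Bst2, -1.89 to 1.78 for Isg15, -2.05 to 0.835 for Ifit3 and -1.26 to 0.912 for Rsad2, so leaving out 1 library could turn their sign. Isg15 has no adjusted p in DESeq2.

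The replicate block, which pairs the libraries, gave 554 genes higher and 79 lower in 4n, and 1 called gene of the interferon lists. With the block and without replicate 1 there were 1255 higher, 399 lower and 5 of the lists, without replicate 3 there were 558, 50 and 1, and without replicate 2 or 4 there were 0. The fold was then 0.185 for Isg15, 0.0484 for Irf7, 0.0374 for Rsad2 and -0.0336 for Bst2 without replicate 2, 0.0839 for Isg15 without replicate 3 and -0.224 for Bst2 without replicate 4. The block changed no call of the 9 genes.

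Over all genes DESeq2 called 860 higher and 93 lower in 4n, limma-voom 0 and 0, total count scaling 12 lower, omission of mitochondrial genes 2 lower, log2(FPKM + 0.1) 15 lower, and log2(FPKM + 1) 186 higher and 8 lower. Without single libraries there were 0 to 870 higher, 0 to 90 lower and 0 to 2 of the lists, with the most without 4n replicate 1. Between cultures 1913 genes and 5 of the 9 were called with total count scaling and 2436 genes with DESeq2's likelihood ratio test. Without single libraries there were 52 to 3308 genes and 0 to 6 of the 9. Without both libraries of replicates 1 to 4 there were 676, 224, 2520 and 64 genes, with 5 of the 9 without replicate 3 and 0 without replicate 4, when 4 of the 9 had too few counts to be tested. The causes of these shifts were not tested. Depth limits Rsad2, Mx1 and Usp18, and Isg15 and Ifit3 outside culture 4, where most libraries held at most 20 counts.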
